A study of Homo sapiens with 6 samples.

Results

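Wnt proteins are secreted, lipid-bearing ligands that signal between neighboring cells. They bind Frizzled receptors together with the co-receptors LRP5 and LRP6, which stabilizes beta-catenin and lets TCF/LEF factors switch on target genes, while other Wnt ligands act through beta-catenin-independent routes. R-spondins and their LGR receptors strengthen the signal by removing the membrane ubiquitin ligases ZNRF3 and RNF43, which otherwise clear Frizzled from the cell surface. Secreted antagonists and intracellular feedback genes restrain it. In the neural crest, from which neuroblastoma arises, Wnt signaling takes part in induction and migration.

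The 56 protein-coding genes of this system were examined among 60651 gene identifiers. They were chosen by symbol alone: 19 Wnt ligands, 10 Frizzled receptors, 2 LRP co-receptors, 4 R-spondins, 3 LGR receptors, 2 membrane ligases, 10 secreted antagonists, 4 intracellular feedback genes and 2 TCF/LEF factors. RNA came from SK-N-AS, an established human neuroblastoma cell line without MYCN amplification. All cells carried a stably transfected tetracycline repressor and a tetracycline-inducible MYCN gene, and single clones were kept under G418 and blasticidin, with no statement of which clone gave which culture. The 3 MYCN-induced cultures received tetracycline (sample titles Tet) for 5 days, given as 120 h in the titles, and the 3 control cultures carry the title ETOH. No cells given tetracycline without the MYCN gene were analysed here, so an effect of the drug and an effect of MYCN cannot be told apart. In bulk RNA, fewer cells expressing a gene and less RNA per cell also cannot be told apart.

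Libraries of RNA depleted of ribosomal RNA held 64500589 to 102249336 counted read pairs. MYCN was at 30.3, 35.5 and 32.4 CPM (counts scaled to a common library size, normalized for library composition) in the controls and at 211, 221 and 199 CPM in the induced libraries. Of 7 adrenergic neuroblastoma markers, 6 averaged at least 1 CPM, among them HAND2 and GATA3, and their summed level was 684 to 974 CPM in controls and 677 to 849 CPM in induced libraries. Of 8 mesenchymal markers 7 averaged at least 1 CPM, CD44 was at 0, and the sum was 551 to 561 CPM in controls and 606 to 615 CPM in induced libraries. VIM made up most of that sum, at 360 to 372 CPM and 420 to 475 CPM, whereas FN1 of the same list fell (log2 fold change -0.71, edgeR adjusted p = 0.033). Summed Schwann cell markers were 4.15 to 8.40 CPM, and no endothelial marker (0 of 3), no epithelial marker (0 of 3) and 1 of 4 blood markers averaged 1 CPM. MYCN-induced replicate 3 stood apart from the other libraries, at 72.6 on the first principal component against 14.9 and 13.1 for the other induced libraries. Summed RNA of 8 integrated stress response genes was 352 CPM there, 101 and 55.1 CPM in induced replicates 1 and 2, and 39.7 to 40.3 CPM in the controls. The part of this library and of the marker sums in the Wnt results was not tested. Values without that library are given for some of the genes that it moved, not for all.

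MYCN-induced cells had lower normalized RNA levels of RSPO2 (R-spondin), NKD1 (feedback inhibitor), LGR4 (receptor), WNT5A (ligand) and SFRP1 (secreted antagonist). The normalized level of the receptor LGR5 was higher. All levels are relative to the other RNA of a library, and RNA per cell was not measured, as no spike-in reads were counted. The paper states that transcription amplified by oncogenic MYCN can make unchanged RNA appear lower in relative terms. Its part here was not tested. Of the 56 genes, 36 reached at least 10 counts in at least 3 libraries and were tested. At an adjusted p under 0.05 from edgeR's quasi-likelihood test, 5 fell and 1 rose, so that 6 of 36 (16.7%) were called. Over all 29086 genes tested the call rate was 3.4%, with 1.02% called higher and 2.38% called lower, and it was 4.43% over protein-coding genes. The values of the 3 controls and the 3 induced libraries did not overlap for 15 of the 36 genes (41.7%), against 26.3% of all genes. The median log2 fold change was -0.08 over the 36 genes and -0.0004 over all genes tested, with 14 of the 36 above 0 and 22 below. Without induced replicate 3 the median of the 35 genes then tested was 0.02, with 18 above 0 and 17 below. DESeq2, the tool of the study's methods, called 9 of the 36, against 7.23% of all genes, including the same 6. With that tool DKK3 and SFRP4 were also lower and ZNRF3 also higher.

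**Figure D1:**
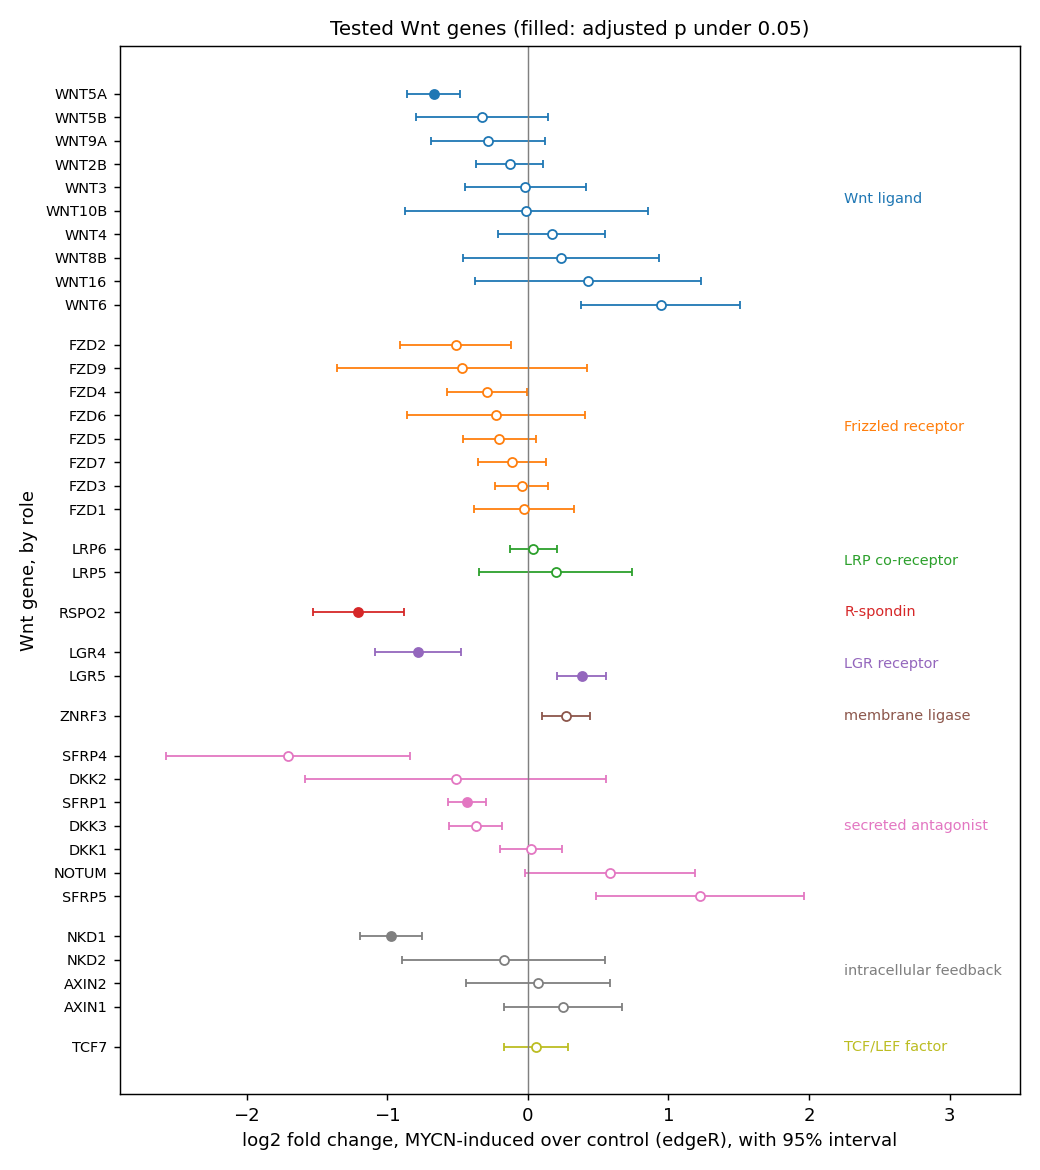
Log2 fold change (MYCN-induced over control, edgeR) with its 95% interval on the horizontal axis for each of the 36 tested Wnt genes on the vertical axis, colored by role, with filled symbols for an adjusted p under 0.05. The filled symbols are RSPO2 (-1.21), NKD1 (-0.97), LGR4 (-0.78), WNT5A (-0.67) and SFRP1 (-0.43) to the left of 0 and LGR5 (0.38) to the right.

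Levels between genes were compared as CPM per kilobase of exon. SFRP1 was the most abundant of the 56 genes in controls at 39.3 ± 0.87 CPM per kb (SD, n = 3), followed by FZD2 at 11.9 ± 1.34 and LGR5 at 9.84 ± 0.46 (SD, n = 3 each). Those of FZD2 and LGR5 lay close together without overlap, at 10.5 to 13.2 and 9.30 to 10.1 CPM per kb. LRP5 at 7.46 ± 2.51, DKK1 at 7.15 ± 0.41, LRP6 at 6.04 ± 0.23, ZNRF3 at 5.42 ± 0.24, LGR4 at 4.94 ± 0.12 and AXIN1 at 4.23 ± 1.06 CPM per kb (SD, n = 3 each) came next, and the wide spread of LRP5 overlapped its neighbors in that order. In induced cells LGR5, at 12.8 ± 0.84, was above FZD2, at 8.32 ± 1.89 CPM per kb (SD, n = 3 each). In all, 16 of the 56 genes averaged at least 1 CPM per kb over the 6 libraries, and WNT5A was the only ligand among them.

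**Figure D2:**
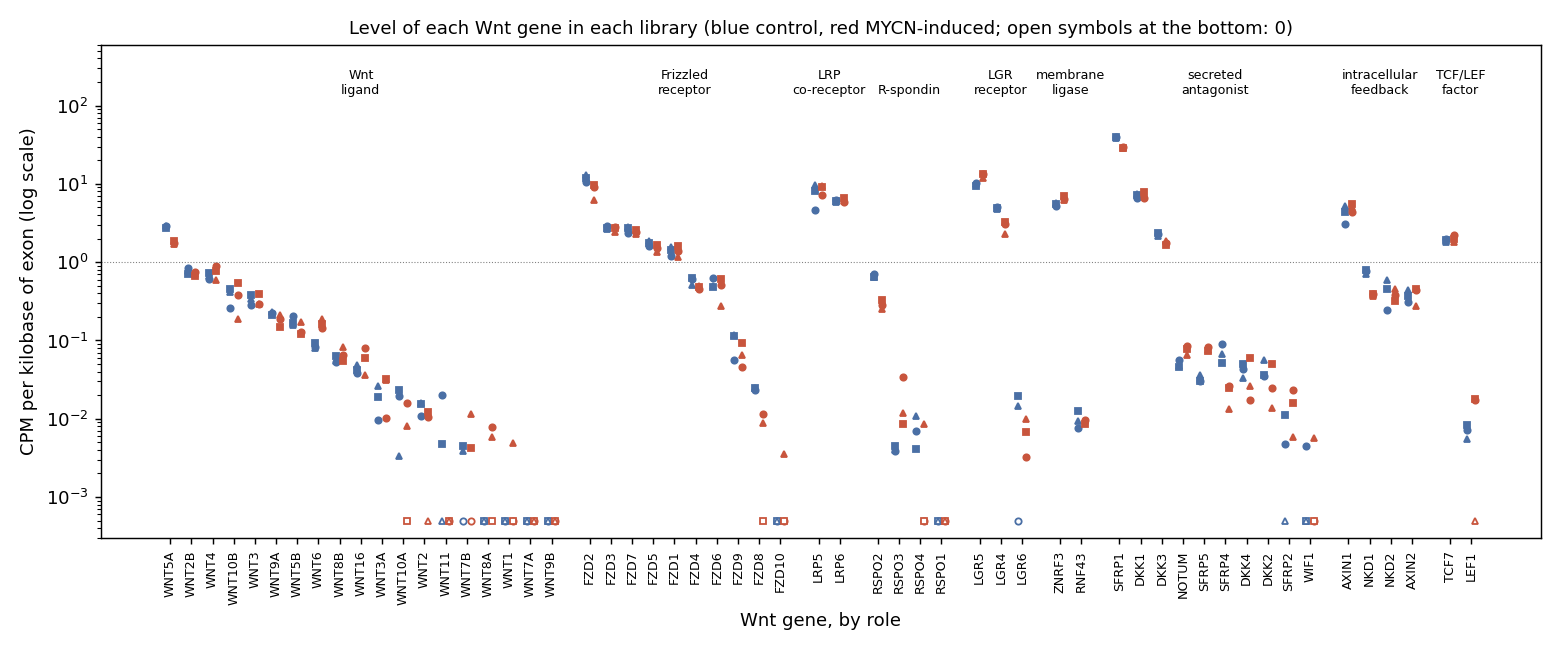
Level of each of the 56 Wnt genes (horizontal axis, by role) in each library as CPM per kilobase of exon on a logarithmic axis, with control libraries in blue, induced libraries in red, circles, squares and triangles for replicates 1, 2 and 3, and open symbols at the bottom for a value of 0. SFRP1 is highest, 16 genes average at least 1, and RSPO1, WNT7A and WNT9B are at 0 in every library.

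WNT5A (chr3:55465715-55490539, minus strand, GRCh38), a ligand known mainly for beta-catenin-independent signaling, was the leading Wnt ligand of these cells and the only ligand past the threshold. It was at 20.7, 19.7 and 20.6 CPM in the control libraries and at 12.5, 13.5 and 12.3 CPM in the induced libraries. Every induced value lay below every control value. Its log2 fold change was -0.67 with a 95% interval of -0.86 to -0.48 (standard error 0.08; edgeR adjusted p = 0.00834). The call was lost without control replicate 2 (adjusted p = 0.0665) and without control replicate 3 (0.0594), within a range of 1.005e-09 to 0.0665 over 12 alternatives, and the log2 fold change stayed between -0.71 and -0.63. WNT5A supplied 52.2%, 48.6% and 50.7% of the summed ligand RNA per kilobase in the controls and 37.2%, 38.8% and 40.5% in the induced libraries. The sum over all 19 ligands was 5.54, 5.66 and 5.67 CPM per kb in the controls and 4.71, 4.85 and 4.24 CPM per kb in the induced libraries.

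The other ligands did not pass the threshold. WNT2B and WNT4 came next in level, at means of 0.77 and 0.67 CPM per kb in controls and 0.70 and 0.75 CPM per kb after induction. WNT2B averaged 9.53 ± 0.77 CPM in controls and 8.72 ± 0.47 CPM after induction (SD, n = 3 per group). Its log2 fold change was -0.13 (95% interval -0.37 to 0.11), and 21.5% of its exon bases are shared with ST7L on the opposite strand. WNT4 averaged 3.11 ± 0.27 and then 3.501 ± 0.68 CPM (SD, n = 3 per group), a log2 fold change of 0.17 (95% interval -0.21 to 0.55). WNT5B, the closest relative of WNT5A, was at 0.860, 0.699 and 0.671 CPM in controls and 0.539, 0.515 and 0.720 CPM in induced libraries. These values overlapped, with a log2 fold change of -0.33 (95% interval -0.80 to 0.14, adjusted p = 0.448 from edgeR). WNT9A was at 0.888, 0.857 and 0.917 CPM in controls and 0.755, 0.601 and 0.837 CPM in induced libraries, without overlap but with an adjusted p of 0.446 from edgeR and a log2 fold change of -0.28. WNT6 had the largest ligand change, from 0.143, 0.158 and 0.138 CPM in controls to 0.247, 0.279 and 0.318 CPM in induced libraries. These groups did not overlap, yet the log2 fold change of 0.95 (95% interval 0.38 to 1.51) had an adjusted p of 0.0857 from edgeR. WNT3, WNT10B, WNT8B and WNT16 ran from -0.02 to 0.43 in log2 fold change, and their edgeR adjusted p-values lay between 0.574 and 0.994. Without induced replicate 3 the log2 fold changes were 0.33 for WNT10B, 0.32 for WNT4, 0.69 for WNT16 and 0.06 for WNT8B, and none passed the threshold.

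The remaining 9 ligands were not tested, and no library held more than 9 counts of any of them. WNT7A and WNT9B had 0 counts in every library, which allows up to 3 counts per library, or 0.0287 to 0.0462 CPM, for counting error only. WNT3A reached 9 counts in induced replicate 2, and WNT1 had 1 count in a single library. In 4 places a pair of ligand genes lies within 100 kb. In each of them 1 gene was tested and its partner was not: WNT3 and not WNT9B, with 46 bases between them on chromosome 17, WNT10B and not WNT1 on chromosome 12, WNT6 and not WNT10A on chromosome 2, and WNT9A and not WNT3A on chromosome 1.

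Among the Frizzled receptors, none of the 8 tested genes was called (0 higher, 0 lower; FZD2 and FZD4 had an unadjusted p under 0.05), and all 8 log2 fold changes were below 0, with a median of -0.22, although those of FZD1, FZD3 and FZD6 were above 0 without induced replicate 3. FZD2 was the most abundant, with 39.7, 45.3 and 49.7 CPM in controls and 34.9, 36.2 and 23.3 CPM in induced libraries. The groups did not overlap and induced replicate 3 was the lowest. Its log2 fold change was -0.51 with a 95% interval of -0.91 to -0.12 (standard error 0.17; edgeR adjusted p = 0.157), and -0.33 without that library (adjusted p = 0.104 from edgeR). FZD4 was at 4.52, 4.67 and 3.77 CPM in controls and 3.39, 3.52 and 3.66 CPM in induced libraries (log2 fold change -0.29, adjusted p = 0.253 from edgeR). Of its exon bases 18.9% are shared with PRSS23 on the opposite strand, which averaged 17.2 ± 0.69 CPM in controls and 27.8 ± 7.72 CPM after induction (SD, n = 3 per group). FZD3 was at 39.9, 37.8 and 36.6 CPM in controls and 39.0, 38.1 and 33.9 CPM in induced libraries, with an interval of the log2 fold change from -0.23 to 0.14. FZD7 was at 10.8, 12.7 and 12.8 CPM in controls and 11.3, 11.7 and 10.5 CPM in induced libraries, with an interval from -0.35 to 0.13. FZD1, FZD5, FZD6 and FZD9 had log2 fold changes from -0.47 to -0.03. FZD8 had 9.33 to 10.3 counts in the controls and 0 to 3 counts in the induced libraries and was not tested, and FZD10 had 1 count in a single library.

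The co-receptors that pair with Frizzled did not change by more than the spread between libraries. LRP6 was at 64.5, 63.3 and 59.99 CPM in controls and 61.0, 68.6 and 63.4 CPM in induced libraries, with a log2 fold change of 0.04 and an interval from -0.13 to 0.20. LRP5 was at 29.0, 49.96 and 59.4 CPM in controls and 45.1, 55.7 and 57.9 CPM in induced libraries. Control replicate 1 was the lowest of the 6 libraries for LRP5, and the log2 fold change of 0.20 (interval -0.35 to 0.74) became -0.05 without it.

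The R-spondin arm held 3 of the 6 called genes. RSPO2 (chr8:107899316-108083642, minus strand), a secreted enhancer of Wnt signaling, was at 3.09, 2.83 and 2.85 CPM in controls and at 1.25, 1.44 and 1.11 CPM in induced libraries. All 3 induced values were under every control value. Its log2 fold change was -1.21 with a 95% interval of -1.53 to -0.88 (standard error 0.14; edgeR adjusted p = 0.00701). Its mean level fell by 56.7%. Without control replicate 2 the adjusted p was 0.0535, within a range of 7.284e-10 to 0.0535 over 11 alternatives, and the log2 fold change ran from -1.31 to -1.11. The other R-spondins were barely detected. RSPO3 had 1.5, 2.5 and 2 counts in the controls and 11, 4 and 5 in the induced libraries, RSPO4 had 0 to 3 counts, and RSPO1 had 0 counts in every library.

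LGR4 and LGR5, which bind R-spondins, moved in opposite directions. LGR4 (chr11:27365961-27472790, minus strand) was at 32.2, 31.2 and 30.7 CPM in controls and at 19.7, 20.6 and 14.5 CPM in induced libraries, the lowest in induced replicate 3. The groups did not overlap, and the log2 fold change was -0.78 with a 95% interval of -1.09 to -0.48 (standard error 0.13; edgeR adjusted p = 0.0244). Without induced replicate 3 it was -0.63 (adjusted p = 0.00356 from edgeR). The call was lost without control replicates 1 (adjusted p = 0.0967), 2 (0.122) or 3 (0.0971) and without induced replicate 1 (0.0762), in a range of 4.268e-05 to 0.122 over 12 alternatives.

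LGR5 (chr12:71439798-71586310, plus strand), known as a stem cell marker of the intestine and a Wnt target there, was at 52.9, 48.6 and 52.6 CPM in controls and at 70.3, 68.8 and 62.0 CPM in induced libraries. Every induced value was above every control value. The log2 fold change was 0.38 with a 95% interval of 0.21 to 0.56 (standard error 0.08; edgeR adjusted p = 0.0396). The mean rose by 30.5%, and the log2 fold change stayed between 0.34 and 0.45 over 12 alternatives. This call was the least stable of the 6, with adjusted p-values from 0.00141 to 0.230 over those alternatives and a value under 0.05 in 4 of them. Of the fits that left out 1 library, only that without induced replicate 3 kept it (adjusted p = 0.00752), while those without control replicates 1, 2 and 3 and without induced replicates 1 and 2 gave 0.117, 0.230, 0.143, 0.121 and 0.0904. Scaling by library size only (0.107) or by upper quartiles (0.0780) also lost it.

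Within each library, LGR5 supplied 66.6%, 65.4% and 67.5% of LGR RNA per kilobase in the controls and 81.2%, 80.2% and 83.8% in the induced libraries. The ratio of LGR5 to LGR4, which does not depend on the scaling between libraries, was 1.99 ± 0.09 in control and 4.54 ± 0.59 in induced cells (SD, n = 3 each). The sum of the 3 receptors overlapped between conditions, at 15.2, 14.2 and 14.9 CPM per kb in the controls and 16.6, 16.4 and 14.2 CPM per kb in the induced libraries. LGR6 had at most 8 counts in a library.

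**Figure D3:**
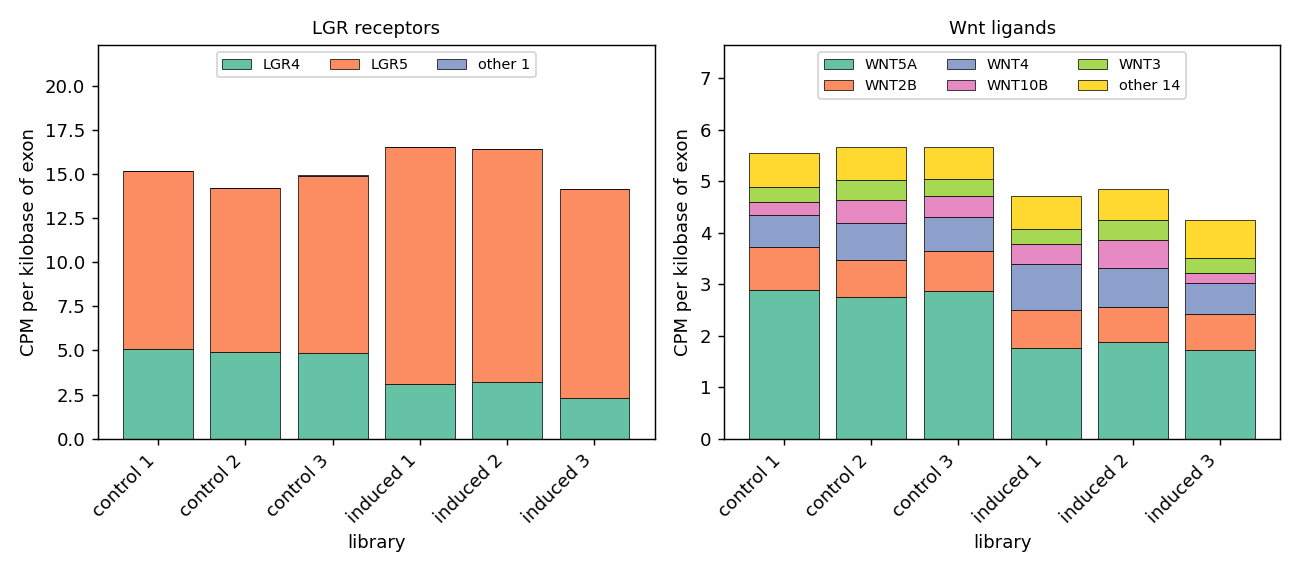
Stacked CPM per kilobase of exon in each library for the 3 LGR receptors (left) and the 19 Wnt ligands (right), with the rarer genes summed as other. The LGR5 segment is taller and the LGR4 segment shorter in the 3 induced libraries, with LGR sums between 14.2 and 16.6 throughout, and the WNT5A segment is shorter, with ligand sums of 5.54 to 5.67 in controls and 4.24 to 4.85 in induced libraries.

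ZNRF3, the membrane ligase that R-spondins and LGR receptors remove, was at 36.1, 38.3 and 39.3 CPM in controls and 44.8, 48.8 and 43.7 CPM in induced libraries. The groups did not overlap, but the log2 fold change of 0.27 (standard error 0.07, 95% interval 0.10 to 0.45) had an adjusted p of 0.1001 from edgeR. It was 0.0432 without induced replicate 3 and 0.0477 with DESeq2, in a range up to 0.354 when single libraries were left out. Its partner RNF43 had at most 6.83 counts in a library, and 68.4% of its exon bases are shared with an overlapping protein-coding gene that averaged 41.5 CPM in controls.

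The stretches before the transcription starts of LGR4 and WNT5A are shown because both genes fell and had an entry among the RefSeq promoters (GRCh38.p14), which cover 37 of the 56 genes in 44 windows. RSPO2, NKD1, SFRP1 and LGR5 had none. Capitals mark the general E-box CANNTG, a broad pattern that matches sites of many basic helix-loop-helix factors and is not specific to MYC family proteins. None of the marked stretches is the canonical form CACGTG. The sequences run 5′ to 3′ on the minus strand and end at the base before the start, at chr11:27472791-27473040 for LGR4, chr3:55481399-55481648 for WNT5A start 1 and chr3:55487307-55487556 for WNT5A start 2.
LGR4: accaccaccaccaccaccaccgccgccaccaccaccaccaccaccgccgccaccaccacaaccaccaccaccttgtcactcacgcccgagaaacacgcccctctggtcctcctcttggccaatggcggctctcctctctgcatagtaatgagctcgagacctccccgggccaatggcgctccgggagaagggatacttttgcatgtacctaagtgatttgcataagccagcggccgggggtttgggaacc
WNT5A start 1: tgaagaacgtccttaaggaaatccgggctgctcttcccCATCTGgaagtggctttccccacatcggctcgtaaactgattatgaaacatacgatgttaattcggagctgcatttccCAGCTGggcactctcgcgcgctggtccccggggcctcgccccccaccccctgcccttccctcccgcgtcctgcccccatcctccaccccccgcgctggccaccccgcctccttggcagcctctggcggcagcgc
WNT5A start 2: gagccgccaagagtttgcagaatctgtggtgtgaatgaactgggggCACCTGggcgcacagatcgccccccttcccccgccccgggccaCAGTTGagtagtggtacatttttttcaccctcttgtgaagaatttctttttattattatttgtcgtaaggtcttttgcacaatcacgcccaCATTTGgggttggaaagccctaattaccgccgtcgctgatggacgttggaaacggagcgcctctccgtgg

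The LGR4 window held 0 matches to CANNTG, and the WNT5A windows held 2 and 3. Over all 35116 RefSeq windows of 250 bases, 61.8% held at least 1 match, against 24 of the 44 Wnt windows (54.5%). The canonical form CACGTG, a subset of CANNTG, was in 0 of the 3 windows shown, in 1 of the 44 Wnt windows (RSPO4) and in 6.35% of all windows. The TCF/LEF core CTTTGA, searched on both strands, was in 0 of the 3, in 1 of the 44 (DKK1) and in 11.2% of all. The windows cover 250 bases only and say nothing of sites elsewhere.

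The summed level of the 10 secreted antagonists was 49.3, 49.3 and 48.2 CPM per kb in controls and 38.5, 38.6 and 38.1 CPM per kb in induced libraries, and most of it was SFRP1. SFRP1 resembles the Wnt-binding part of Frizzled and can hold Wnt ligands outside the cell. SFRP1 (chr8:41261962-41309473, minus strand) was at 189.6, 186.6 and 181.4 CPM in controls and at 141.6, 136.3 and 135.4 CPM in induced libraries, with no overlap. The log2 fold change was -0.43 with a 95% interval of -0.57 to -0.30 (standard error 0.06; edgeR adjusted p = 0.0119). The mean level fell by 25.9%. The call was lost without control replicates 1 (adjusted p = 0.0543), 2 (0.103) and 3 (0.0646), in a range of 1.782e-06 to 0.103 over 12 alternatives, and the log2 fold change stayed between -0.46 and -0.41.

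DKK1, which blocks LRP5 and LRP6, was at 14.9, 16.1 and 16.6 CPM in controls and 14.7, 17.3 and 16.4 CPM in induced libraries. These values overlapped, with a log2 fold change of 0.02 (interval -0.20 to 0.25) that was -0.01 under both other scalings tried. Of its exon bases 10.2% are shared with the antisense RNA PRKG1-AS1, which averaged 4.37 ± 0.86 CPM in controls and 3.67 ± 0.94 CPM after induction (SD, n = 3 per group). DKK3, a divergent member of the Dickkopf family, was at 27.5, 28.1 and 26.0 CPM in controls and 20.8, 20.0 and 22.3 CPM in induced libraries. The groups did not overlap, and the log2 fold change of -0.37 (standard error 0.08, 95% interval -0.56 to -0.19) had an adjusted p of 0.0517 from edgeR. It passed in 5 of 12 alternatives, with library size only (0.0390), upper-quartile normalization (0.0480), DESeq2 (0.00691) or at least 100 counts per library (0.0393) and without induced replicate 3 (0.0171), in edgeR fits without 1 library that reached 0.269. USP47 on the opposite strand shares 47.5% of the DKK3 exon bases and averaged 107.9 ± 3.16 CPM in controls and 110.7 ± 0.89 CPM after induction (SD, n = 3 per group).

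The other antagonists were rare. SFRP4 was at 0.315, 0.181 and 0.237 CPM in controls and 0.0925, 0.0859 and 0.0472 CPM in induced libraries (log2 fold change -1.71, adjusted p = 0.0539 from edgeR), and SFRP5 was at 0.0573, 0.0564 and 0.0690 CPM and 0.154, 0.140 and 0.142 CPM (log2 fold change 1.22, adjusted p = 0.0882 from edgeR). Neither overlapped between conditions, and both rest on at most 33 counts in a library. NOTUM, which strips the lipid from Wnt proteins, had a log2 fold change of 0.58 and DKK2 one of -0.51, with adjusted p-values of 0.281 and 0.616 (edgeR). That of DKK2 was -0.14 without induced replicate 3. SFRP2, DKK4 and WIF1 had at most 5 counts in a library and were not tested.

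Among the intracellular feedback genes NKD1 had the lowest adjusted p of all the Wnt genes tested. NKD1 is a homolog of Drosophila naked cuticle, binds Dishevelled and is itself a Wnt target in several tissues. The gene (chr16:50548396-50649249, plus strand) was at 13.5, 13.7 and 12.2 CPM in controls and at 6.90, 6.77 and 6.39 CPM in induced libraries, a clear gap between the groups. The log2 fold change was -0.97 with a 95% interval of -1.20 to -0.75 (standard error 0.10; edgeR adjusted p = 0.00455). The mean level fell by 49.0%. NKD1 was the only one of the 6 called genes that stayed under 0.05 in every one of its 12 alternatives, with adjusted p-values from 8.178e-16 to 0.0462.

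AXIN2, the most widely used readout of beta-catenin signaling, was rare and did not pass the threshold. It was at 1.62, 1.92 and 2.28 CPM in controls and 2.30, 2.39 and 1.44 CPM in induced libraries. The values overlapped, with a log2 fold change of 0.07 and a wide interval from -0.44 to 0.58. Without induced replicate 3, the lowest of the 6 libraries, the log2 fold change was 0.28 (edgeR adjusted p = 0.344). For AXIN2, 25.2% of the exon bases are shared with another protein-coding gene. The ratio of NKD1 to AXIN2 per kilobase was 2.50, 2.15 and 1.61 in controls and 0.905, 0.852 and 1.34 in induced libraries. AXIN1, the scaffold of the beta-catenin destruction complex, was at 23.4, 33.0 and 39.2 CPM in controls and 33.2, 42.2 and 38.3 CPM in induced libraries (log2 fold change 0.25, interval -0.17 to 0.67). NKD2 overlapped between conditions at 0.707 to 1.74 and 0.934 to 1.31 CPM. Of the TCF/LEF factors among the 56, TCF7 averaged 19.2 ± 0.96 CPM and, after induction, 20.0 ± 2.03 CPM (SD, n = 3 per group), with an interval of the log2 fold change from -0.17 to 0.29 and a value of 0.14 without induced replicate 3, and LEF1 had at most 9 counts in a library.

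**Figure D4:**
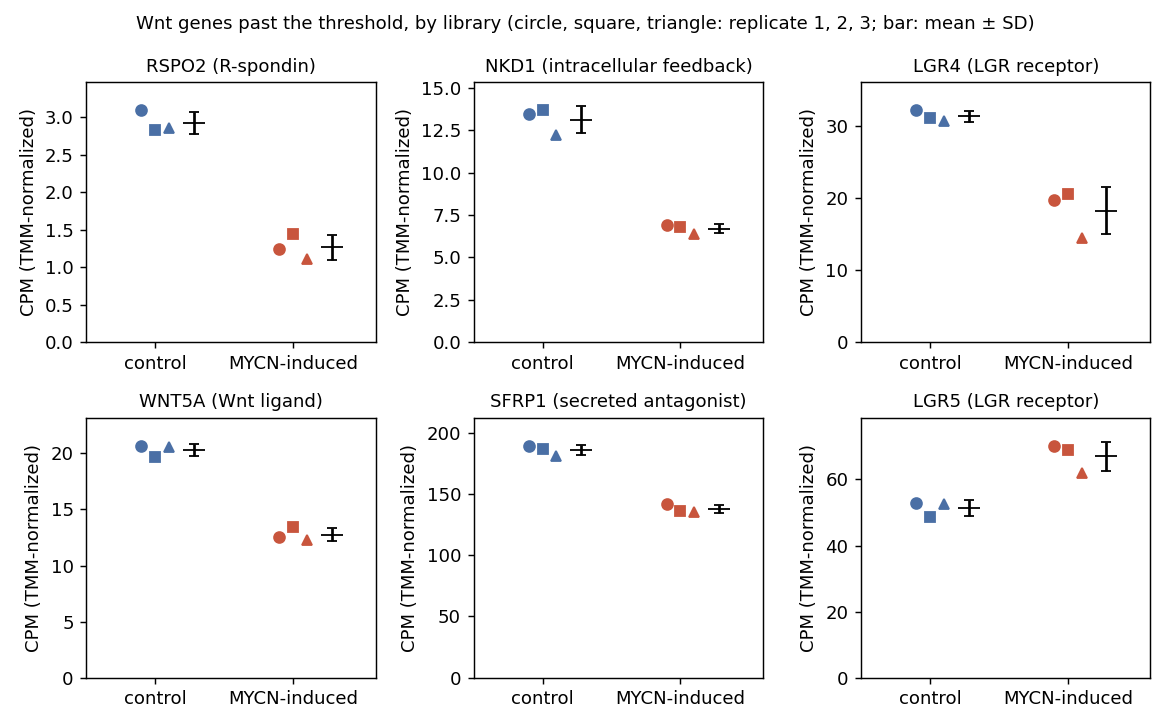
CPM of the 6 called Wnt genes (vertical axes from 0) in each control and MYCN-induced library, with circles, squares and triangles for replicates 1, 2 and 3 and bars for the mean ± SD. RSPO2, NKD1, LGR4, WNT5A and SFRP1 are lower and LGR5 is higher in all 3 induced libraries, and the lowest LGR4 value, 14.5 CPM, is that of induced replicate 3.

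MYCN-induced replicate 3 held the lowest value of the 6 libraries for 18 of the 36 tested genes, among them FZD2, LGR4, RSPO2, WNT5A, NKD1 and SFRP1, and the highest for 2. Control replicate 1 held the lowest for 6, among them LRP5, AXIN1 and NKD2. Without induced replicate 3 the count of called Wnt genes was 2 higher and 6 lower, adding ZNRF3 and DKK3. In that fit all genes together gave 2339 calls among 28797 tested, in place of 990 among 29086. Without control replicate 2 the count of called Wnt genes was 0 higher and 1 lower, the latter NKD1, where all genes together gave 90 calls. The 6 called genes kept their direction in every alternative in which they were tested.

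**Figure D5:**
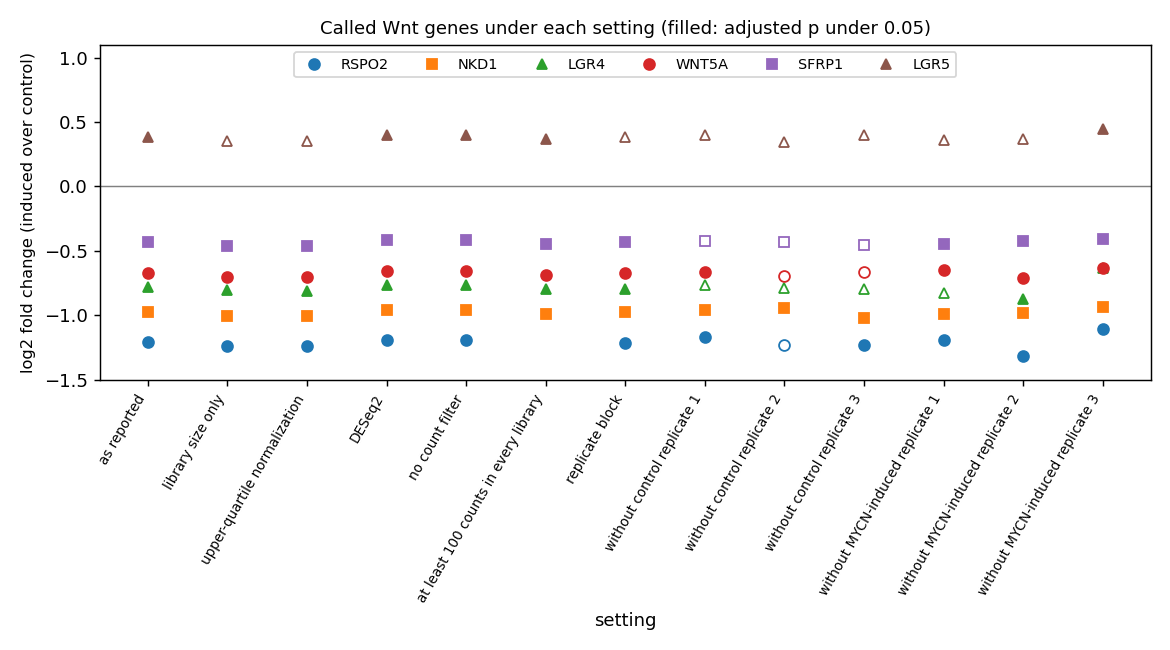
Log2 fold change (MYCN-induced over control, vertical axis) of the 6 called Wnt genes under each setting (horizontal axis), with filled symbols for an adjusted p under 0.05. No gene crosses 0, NKD1 is filled throughout, LGR5 is filled in 4 of the 12 alternatives, and RSPO2 has no value at 100 counts in every library because it did not reach that filter.

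The rest of the pathway was read from a list of 68 further Wnt genes, of which 59 were tested. In it 0 were higher and 2 were lower at an adjusted p under 0.05 from edgeR (3.39% called, close to the 3.4% of all genes; DESeq2 gave 3 higher and 5 lower, or 13.6% against 7.23% of all genes), and the median log2 fold change was -0.10. At an unadjusted p under 0.05 there were 3 higher (5.08%) and 16 lower (27.1%), against 8.13% and 10.6% of all genes tested. TNFRSF19, a receptor reported as a Wnt target, fell from 2.44, 2.63 and 2.93 CPM to 1.03, 1.11 and 1.003 CPM. Its log2 fold change was -1.35 (standard error 0.13) and its edgeR adjusted p 0.00460, and at most 0.0426 when any 1 library was left out. PRICKLE1, a planar polarity protein, fell from 7.49, 7.26 and 7.87 CPM to 4.35, 3.45 and 3.11 CPM, a log2 fold change of -1.06 with an error of 0.14 (edgeR adjusted p = 0.0111). The PRICKLE1 call was lost without control replicates 1 (0.0515), 2 (0.0704) and 3 (0.0662), in a range from 3.219e-09 with DESeq2 to 0.0704.

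The most abundant gene of each role in the list, by its mean over the 6 libraries, did not pass the threshold with edgeR and all libraries. WLS, which carries Wnt proteins to the surface, averaged 110.9 ± 0.54 CPM in controls and 110.5 ± 2.91 CPM after induction (SD, n = 3 per group), with an interval of the log2 fold change from -0.14 to 0.13. The co-receptor RYK (0.03, interval -0.13 to 0.19), the adaptor DVL3 (-0.05, interval -0.29 to 0.19) and the polarity gene VANGL2 (-0.10, interval -0.29 to 0.09) had log2 fold changes near 0. Among the destruction complex genes the kinase CSNK1A1 led over the 6 libraries, but in controls FBXW11 was higher, at 21.05 against 18.8 CPM per kb. CSNK1A1 averaged 160.0 ± 0.71 CPM in controls and 203.6 ± 20.6 CPM after induction (SD, n = 3 per group). Its log2 fold change of 0.35 had an edgeR adjusted p of 0.0648, and that of FBXW11 was -0.02. TCF7L2, the most abundant TCF factor, averaged 179.2 ± 9.02 CPM and 142.2 ± 10.2 CPM (SD, n = 3 per group), and its log2 fold change of -0.33 had an edgeR adjusted p of 0.0604. Neither CSNK1A1 nor TCF7L2 overlapped between conditions. Both passed with DESeq2 (adjusted p = 0.0154 for CSNK1A1 and 0.0249 for TCF7L2) and with edgeR without induced replicate 3 (0.0190 and 0.0239), while leaving out other libraries gave up to 0.276 and 0.251. KREMEN1, a co-receptor of Dickkopf proteins, changed by -0.26 on the log2 scale at an edgeR adjusted p of 0.118, and CCND1, a cell cycle gene reported as a target, by -0.42 at 0.0991. FOSL1, a reported target named here after its values were seen, was at 9.49, 11.02 and 9.96 CPM in controls and 16.5, 15.4 and 36.9 CPM in induced libraries. The groups did not overlap, and the log2 fold change of 1.18 had an adjusted p of 0.0964 with edgeR, 0.00333 with DESeq2 and 0.0119 without induced replicate 3, where the log2 fold change was 0.66. FOSL1 alone of the 5 tested reported targets was above 0. BMP4 (-0.44) and MYC (-0.16), like DACT1 named after their values were seen, were below 0 and not called. Without induced replicate 3 MYC was at -0.48 (adjusted p = 0.0160 from edgeR). The modulator DACT1 was at -0.59 (adjusted p = 0.197 from edgeR), and at -0.89 without that library (0.00643).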

How the data were processed

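Ribosome-depleted RNA of 3 control and 3 MYCN-induced SK-N-AS cultures was sequenced, described as biologically independent experiments. The authors deposited estimated counts per gene. According to the file headers these are read pairs on exons from unique alignments, counted with featureCounts 1.6.4 without a strand option and shared in equal fractions between overlapping genes. The processing notes name STAR 2.7.1a, GRCh38 and featureCounts 1.5.1, and the methods give a strand option that the headers of these files lack. By the headers, reads of genes overlapping on opposite strands may be mixed, which a strand-specific count would avoid. Names came from GENCODE release 44 (99.7% of identifiers matched), where all 56 Wnt genes had the coordinates of the files. A set of 92 spike-in rows, all at 0, was left out.

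Counts were rounded and the 29086 genes that reached 10 counts in 3 or more libraries were fitted together with edgeR 4.0.16 (R 4.3.3; TMM, quasi-likelihood test, condition only) and Benjamini-Hochberg adjustment, threshold 0.05. The standard error is the log2 fold change divided by the square root of F, and intervals are at 95%. CPM use TMM factors and exon lengths come from the files. The common biological coefficient of variation was 0.153. Replicates differed beyond sampling noise (chi-square per gene 12.1 to 145.6). On simulated counts of 28665 genes for this comparison with 200 changed 2-fold, edgeR called 92.5% of them and 7 others, and DESeq2 1.42.0 called 90.5% and 24. The simulation gave every gene the same dispersion, changed only well-counted genes and held no outlying library. Its rates therefore need not hold for rare genes or for these libraries.

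Each gene of the symbol rule is accounted for. Values by library are given for those past the threshold, the 12 with the highest mean TPM (the same 12 by CPM per kilobase) and the 12 with the largest change at a mean of at least 0.2 CPM, and of the pathway list for those past the threshold. The most abundant of each role in that list, by mean TPM over the 6 libraries, is given by group means or by its log2 fold change. AXIN2, SFRP4 and SFRP5 are given by library outside these rules, chosen after their values were seen. The Wnt genes, lists and tests were chosen with earlier results of these data known. Alternatives were library size only, upper-quartile normalization, DESeq2, no filter on counts, a minimum of 100 counts in all libraries, a block for replicate number, omission of single libraries, and thresholds of 0.01 and 0.1. CircRNA, quantitative PCR and protein measurements were not analysed here. A gene of the adrenergic marker list is not reported here.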

Additional observations from a re-analysis of the deposited data

How the results depend on the processing

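As reported, 1 Wnt gene was higher and 5 were lower, and 0 and 2 genes of the pathway list. With library size only the Wnt genes gave 0 higher and 6 lower, and with upper-quartile normalization 0 and 7, with 1 pathway gene higher. DESeq2 gave 2 higher and 7 lower, and 3 and 5 in the pathway list. Without a count filter 3 pathway genes were higher. A threshold of 0.01 gave 0 higher and 3 lower, and 0 and 1 in the list, and one of 0.1 gave 3 and 7, and 3 and 5. The number of calls among all genes moved as well, from 990 as reported to 913 when scaled by library size, 1021 by upper quartiles and 2103 with DESeq2. It was 1281 among 45073 genes when no filter was applied. Leaving out 1 library gave 0 to 2 Wnt genes higher and 1 to 6 lower, and 0 to 2 and 1 to 5 in the list. All genes together gave between 90 and 2339 calls in those fits, so these Wnt counts are not specific to the Wnt genes. The median log2 fold change of the Wnt genes ran from -0.153 to 0.0196 in those fits and was -0.107 and -0.106 under these 2 other scalings, where that of all genes was -0.034 and -0.031. The replicate numbers did not pair the libraries, with correlations of deviations of 0.21, -0.02 and 0.07 for same-numbered libraries. With the replicate block 0 Wnt genes were higher and 5 lower, with 1 pathway gene higher, and all genes gave 840 calls. LGR5 then had an adjusted p of 0.0661 from edgeR, and NKD1, RSPO2, WNT5A, LGR4 and SFRP1 stayed between 0.0109 and 0.0307. Among the Wnt genes of the naming rule that were not called, the sign turned for DKK1 under the scaling by library size (-0.0090) and by upper quartiles (-0.0064). It also turned when single libraries were left out for DKK1 (-0.030 to 0.092, below 0 without control replicate 1 at -0.027 and without induced replicate 2), FZD3 (-0.075 to 0.025, above 0 without induced replicate 3), LRP5 (-0.053 to 0.419, below 0 without control replicate 1) and LRP6 (-0.0094 to 0.084, below 0 without induced replicate 2). The cause of these shifts was not tested. Fits that leave 1 library out also hold fewer libraries. Among the other Wnt genes tested, FZD1, FZD6, TCF7, WNT10B, WNT3, AXIN2 and NKD2, none of them called, also changed sign in at least 1 alternative. The 20 genes not tested had at most 11 counts in a library.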

Other observations

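Genes named after or related to the Wnt genes but outside the symbol rule were looked at after the other values were seen. FRZB, a secreted Frizzled-related protein like SFRP1, averaged 18.9 ± 1.37 CPM in controls and 19.4 ± 2.43 CPM after MYCN induction (SD, n = 3 per group), with an edgeR adjusted p of 0.897. WNT5A-AS1, a noncoding RNA that shares no exon base with WNT5A, was at 1.13, 1.17 and 1.22 CPM in controls and 0.709, 0.805 and 0.554 CPM in induced libraries. Its log2 fold change of -0.77, at an edgeR adjusted p of 0.0625, did not pass the threshold, although the groups did not overlap. LGR4-AS1 was at 0.321 ± 0.125 and 0.221 ± 0.013 CPM (SD, n = 3 per group; adjusted p = 0.430 from edgeR). DKKL1, a relative of the Dickkopf genes, was at 2.30 ± 0.08 and 1.95 ± 0.12 CPM (SD, n = 3 per group; adjusted p = 0.347 from edgeR). LEF1-AS1 and FZD10-AS1 had at most 1 count in a library.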
